A study of Arabidopsis thaliana with 18 samples.

Results

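UBP12 (AT5G06600) and UBP13 (AT3G11910) are a pair of closely related ubiquitin-specific proteases of Arabidopsis thaliana, and they make up 2 of the 32436 genes or loci counted in these long-read libraries. They were chosen by gene identifier, with the splicing differences of xct-2 and xct-1 from Col-0 already known, so values from those comparisons are given as description with no test. UBP12 had 69 counted features and UBP13 had 68, in each case the gene itself, its exon bins (35 and 34), 32 annotated splice junctions and 1 junction outside the annotation, called unannotated here.

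Ubiquitin-specific proteases remove ubiquitin from proteins and can thereby protect them from degradation by the proteasome. UBP12 and UBP13 are orthologues of human USP7 and carry a MATH domain before the protease domain. In Arabidopsis they are known to act with GI on the clock F-box protein ZTL, and they have been linked to flowering time, jasmonate signalling through MYC2, root growth, leaf growth and photoreceptor control.

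RNA of whole seedlings was sequenced by PacBio Iso-Seq, which can read a whole transcript in 1 long read. Each genotype was represented by 3 independent biological replicates, per the labels. The genotypes were Col-0 (wild type), 2 mutants of XCT, xct-1 and xct-2 (XCT is XAP5 CIRCADIAN TIMEKEEPER, a conserved nuclear protein), the mutant prl1-2 of PRL1 (a WD40-repeat protein of a spliceosome-associated complex), xct-2 carrying an XCT::XCT transgene and xct-1 carrying a transgene labelled XCT::SpXAP5. The labels do not say what the alleles change or how many transgenic lines were used, and the authors' table headers add a YFP-HA tag to the XCT rescue construct. After 3 days of stratification, all seedlings were kept at 22 °C under continuous light (55 µmol per square metre and second). On day 11 tissue was harvested at intervals of 2 h for 24 h and combined into 1 sample, so the counts average over the day. Another label gives the seedlings as 10 days old.

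The 18 libraries held 459150 to 1046273 gene reads, and 7.05 to 11.5 junction reads per gene read. PRL1 had 0 reads in each prl1-2 library against 33, 26 and 10 in Col-0. XCT had 16 reads in xct-2, none in its first 3 exon bins, against 26 in Col-0 with 25, 25 and 26 in those bins, and 1272 in xct-2 XCT::XCT. The total of XCT was 89 reads in xct-1, so it does not check that allele, and the counts hold no feature for SpXAP5.

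The largest splicing difference in the pair lay at intron 6 of UBP13 and was absent from the matching intron of UBP12. UBP13 is on the minus strand of chromosome 3. Its annotated intron 6 (junction J060) runs from 3768334 to 3768410, 77 bases in the authors' coordinates. The unannotated junction N067 uses the same 5′ splice site and a 3′ site 30 bases further downstream, giving an intron of 107 bases from 3768304 to 3768410. Those 30 bases, a multiple of 3, are the start of an exon of 109 bases (3768225 to 3768333). Reads on N067 therefore lack the first 30 bases of that exon.

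No read fell on N067 in any of the 9 libraries of Col-0, xct-2 XCT::XCT and prl1-2. There were 92, 55 and 122 reads in replicates 1 to 3 of xct-1. The xct-2 libraries had 211, 81 and 249 reads, and those of xct-1 XCT::SpXAP5 had 81, 140 and 153. All 9 libraries with reads on the junction thus belonged to 3 genotypes, and no library of the other 3 genotypes had any.

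Among reads that used this 5′ site, the share on the downstream 3′ site was 41.8%, 37.9% and 36.7% in xct-1, a mean of 38.8% ± 2.65 (SD, n = 3). In xct-2 it was 65.5%, 62.3% and 65.9%, a mean of 64.6% ± 1.97 (SD, n = 3). In xct-1 XCT::SpXAP5 it was 37.5%, 37.4% and 46.5%, a mean of 40.5% ± 5.22 (SD, n = 3). Every xct-2 library lay above every library of xct-1 and of xct-1 XCT::SpXAP5, while the ranges of the last 2 overlapped. The 0 of 632 reads at this 5′ site in Col-0 allow a share of up to 0.475%, the 0 of 839 reads in xct-2 XCT::XCT up to 0.358%, and the 0 of 401 reads in prl1-2 up to 0.748%. These limits cover counting error only, as molecules may have been read more than once. Against the limit in Col-0, with 3 counts set over the group, the xct-1 share was at least 81.3-fold higher, and the xct-2 share was at least 137-fold higher.

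**Figure D1:**
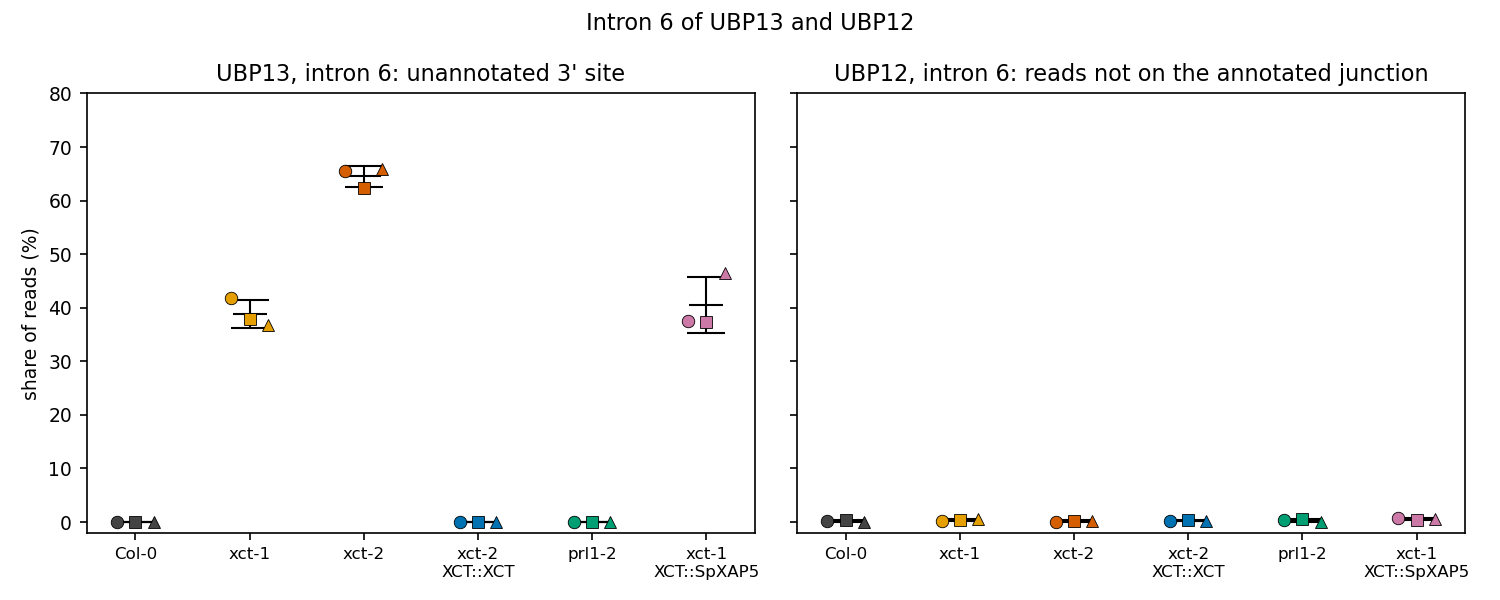
The left panel shows the percent of reads at the intron 6 5′ splice site of UBP13 that used the unannotated 3′ site. The right panel shows the percent of reads covering both exons around intron 6 of UBP12 that were not on its annotated junction. Reads covering both exons were counted as the lower of the read counts of those exons. Points are libraries (circle, square and triangle for replicates 1 to 3) and bars give the mean ± SD of 3; UBP13 has means of 38.8% (xct-1), 40.5% (xct-1 XCT::SpXAP5) and 64.6% (xct-2), with 0% elsewhere, while UBP12 stays under 1% in all 18 libraries.

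The annotated junction J060 moved in the opposite direction. Its reads were 161, 112 and 359 in Col-0, or 94.0% ± 1.94 of the gene's reads (SD, n = 3). They were 111, 49 and 129 in xct-2, or 33.8% ± 1.44, and 128, 90 and 210 in xct-1, or 59.1% ± 3.31. The annotated and the unannotated junction together accounted for 93.2% to 100% of the reads that covered both neighbouring exons, in every library. Reads covering both exons were counted, here and below, as the lower of the read counts of those exons. A read that ended within the less covered exon could thus be included. The exon after the intron, as a whole bin, was covered by 96.2% to 97.7% of UBP13 reads in each genotype mean, because a read on N067 still covers its remaining part.

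Expression of XCT from the transgene in xct-2 went with a J060 usage of 94.7% ± 0.190 (SD, n = 3) and no read on N067. That usage lay inside the range of the Col-0 libraries, which was 91.8% to 95.5%. In xct-1 XCT::SpXAP5, J060 had 135, 234 and 176 reads, or 56.9% ± 4.61 of the gene's reads. The xct-1 and xct-1 XCT::SpXAP5 libraries overlapped for both junctions. In the authors' deposited table for xct-1 against xct-1 XCT::SpXAP5, N067 had an adjusted p of 0.969, and no feature of UBP12 or UBP13 had one under 0.05.

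Of the tested comparisons, xct-1 XCT::SpXAP5 against Col-0 called exactly these 2 of the 66 junctions tested in the pair, where 1.14% of all 50590 junctions were called. N067 reached the read minimum for testing only through the genotypes in which it was high, so its call was fixed beforehand and it is given as a description, with no test. Its share was at least 85.7-fold higher than the Col-0 limit. The log2 odds of J060 in UBP13, its reads against all other reads of the gene, fell by 3.63 (SE 0.440, adjusted p 1.25e-05 by the quasi-likelihood test of edgeR), lower in 3 of 3 libraries. The same Col-0 libraries served in the comparisons that chose the gene, so the Col-0 side of both junctions is not new evidence. No UBP12 junction was called, while 4 of its 33 had an unadjusted p under 0.05.

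In xct-2 XCT::XCT against Col-0, both edgeR and DESeq2 called 0 of the 66 junctions, with 0 at an unadjusted p under 0.05, where 0.00198% of all junctions were called. In prl1-2 against Col-0, both tools again called 0 of the 66, with 2 at an unadjusted p under 0.05 in edgeR, where 9.75% of all junctions were called. N067 is among the 66 but had no read in either group of these 2 comparisons, so it could not have been called. Thus neither gene added a call to the broad change of prl1-2 when a junction was measured against all reads of its gene.

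UBP12 lies on the minus strand of chromosome 5. Both genes had 31 introns, and 26 of the 30 internal exons compared in order had the same length in both, so introns were matched by their order from the 5′ end. The introns themselves seldom had the same length (3 of 31), with a median of 103 bases in UBP12 and 102 in UBP13. Intron 6 of UBP12 (J061, 2025829 to 2025915) has 87 bases and is followed by an exon of 109 bases, the same length as in UBP13. That exon spans 2025720 to 2025828.

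No unannotated junction was listed at intron 6 of UBP12, and its annotated junction took nearly all reads spanning the intron in every genotype. In UBP12, 738, 383 and 841 reads of the xct-2 libraries covered both exons around the intron, and 0, 1 and 2 of them were not on the annotated junction. Any other splice site there, listed or not, would be among those reads, which made up 0.166% ± 0.144 (SD, n = 3). In xct-1 the same share was 0.378% ± 0.206 and in xct-1 XCT::SpXAP5 0.537% ± 0.187, against 0.217% ± 0.197 in Col-0. The libraries of these 4 genotypes overlapped, apart from xct-1 XCT::SpXAP5 and xct-2, whose highest library had 0.261% and lowest xct-1 XCT::SpXAP5 library 0.357%.

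The introns next to intron 6 were used at similar rates in all 6 genotypes. Intron 5 had genotype means of 94.1% to 96.9% of gene reads in UBP13 (J061) and 96.3% to 98.0% in UBP12 (J062). Intron 7 had means of 96.1% to 97.6% in UBP13 (J059) and 95.9% to 98.5% in UBP12 (J060). The SD between libraries of 1 genotype at these introns reached 3.18 percentage points in UBP13 and 1.94 in UBP12.

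Both genes also shared a pair of annotated 3′ sites 3 bases apart at intron 1 of the gene. In UBP12 the downstream site (J066, against J067) took 21.2%, 22.7% and 23.0% of the reads at the 5′ site in Col-0, a mean of 22.3% ± 0.959 (SD, n = 3). For xct-1 the values were 26.0%, 24.5% and 24.9%, a mean of 25.1% ± 0.765. The xct-2 libraries had 28.1%, 29.1% and 27.1%, a mean of 28.1% ± 1.01. All xct-1 libraries lay above all Col-0 libraries, and all xct-2 libraries above all xct-1 libraries. This order was not tested, and how often paired 3′ sites of other genes separate in this way was not counted. In xct-2 XCT::XCT the mean was 22.0% ± 2.51, which overlapped Col-0.

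In prl1-2 the downstream site of UBP12 took 17.0%, 19.9% and 18.1%, a mean of 18.3% ± 1.45, below every Col-0 library. Tested against the other junction at the same 5′ site, this difference was a log2 odds change of −0.37 (SE 0.168, adjusted p 0.261, edgeR), so it did not pass, where 3.52% of the 5231 such junctions were called. The UBP12 share in xct-1 XCT::SpXAP5 was 24.1% ± 0.0920, and the change was 0.13 (SE 0.137, adjusted p 0.596, edgeR), also not called.

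In UBP13 the downstream site (J065, against J066) took 34.0%, 29.9% and 27.6% in Col-0, a mean of 30.5% ± 3.23 (SD, n = 3). The genotype means ran from 23.7% ± 3.95 in xct-1 to 30.5% in Col-0, with 28.1% ± 5.03 in xct-2. The xct-2 libraries, at 30.9%, 31.1% and 22.3%, overlapped those of Col-0, unlike in UBP12. All xct-1 libraries, at 26.8%, 19.3% and 25.2%, lay below all Col-0 libraries, whereas in UBP12 they lay above them. For xct-1 XCT::SpXAP5 the share was 24.1% ± 3.55, a log2 odds change of −0.46 against Col-0 (SE 0.189, adjusted p 0.0651, edgeR), just outside the threshold, where 23.7% of such junctions were called. The difference between the paralogues was not tested.

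**Figure D2:**
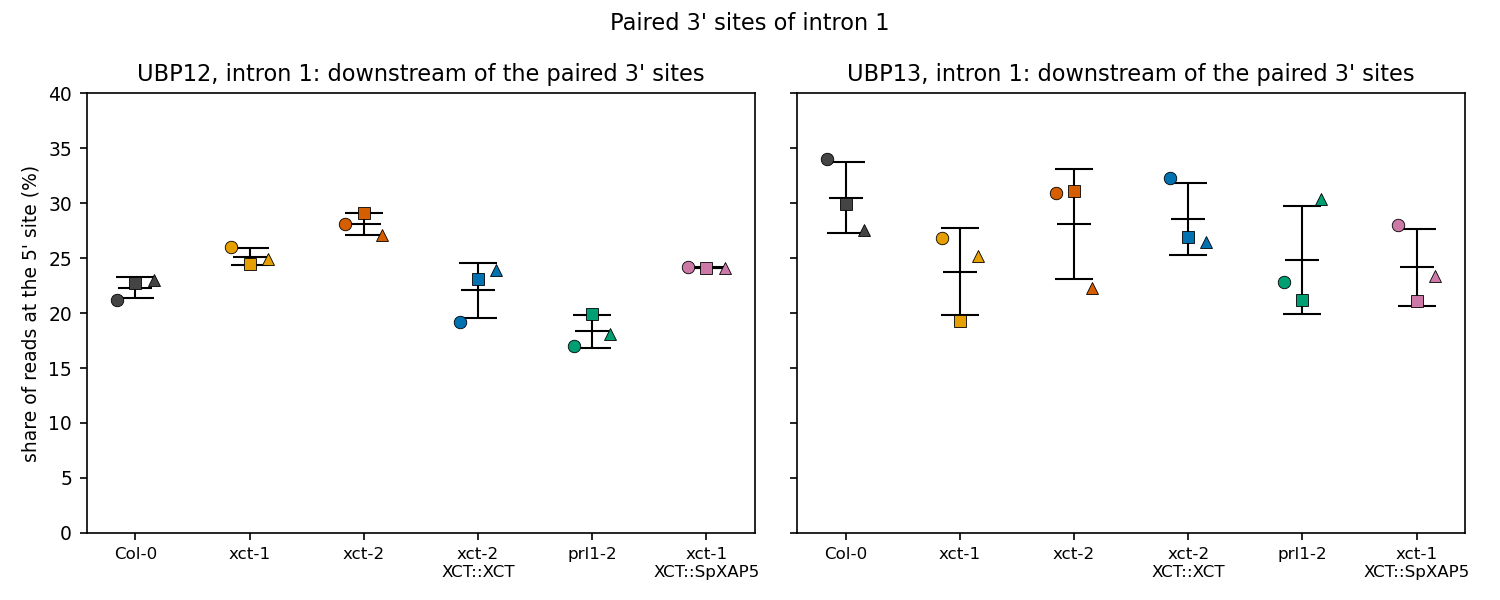
The percent of reads at the 5′ splice site of intron 1 that used the downstream of 2 annotated 3′ sites, 3 bases apart, is plotted for each library of the 6 genotypes, with the mean ± SD of 3. In UBP12 the libraries of prl1-2 (mean 18.3%), Col-0 (22.3%), xct-1 (25.1%) and xct-2 (28.1%) do not overlap. Those of xct-2 XCT::XCT (22.0%) overlap both prl1-2 and Col-0, and those of xct-1 XCT::SpXAP5 (24.1%) lie between Col-0 and xct-1. In UBP13 the libraries of Col-0 and xct-2 overlap and those of xct-1 lie below Col-0.

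The single unannotated junction of UBP12 (N068) was a minor form in every genotype. It ends 2 bases downstream of the annotated 3′ site of intron 4 (J063) and spans 2026496 to 2026818. It had 2, 4 and 9 reads in Col-0, a share of 1.06% ± 0.504 of the reads at its 5′ site (SD, n = 3). The genotype means ran from 0.743% ± 0.294 in xct-2 to 1.76% ± 0.710 in xct-2 XCT::XCT. Its log2 odds changes in UBP12 were −0.09 in prl1-2 (adjusted p 0.962), 0.72 in xct-2 XCT::XCT (adjusted p 1.00) and 0.07 in xct-1 XCT::SpXAP5 (adjusted p 0.995, all edgeR), and none was called.

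In prl1-2 the pair differed from Col-0 in another way, by reads counted as unspliced. Intron retention was measured by the unspliced share. This is the percent of reads covering both neighbouring exons, counted as above, that were on no listed junction between them. Reads that ended in the less covered exon or used an unlisted splice site would also be in this share. Over all 31 introns of UBP12 it was 0.744%, 0.292% and 0.357% in the Col-0 libraries and 1.74%, 1.68% and 1.83% in prl1-2. For UBP13 it was 1.00%, 0.703% and 0.658% in Col-0 and 2.24%, 1.44% and 2.60% in prl1-2. The groups did not overlap in either gene. The other 4 genotypes had pooled shares of 0.480% to 0.784% in UBP12 and 0.627% to 0.861% in UBP13.

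All 3 prl1-2 libraries lay above all Col-0 libraries at 19 of the 31 introns of UBP12 and 7 of the 31 of UBP13, and below at none. The same held for 41.4% of 34980 introns of all genes with at least 20 such reads in each library, and 0.455% lay below. UBP13 was thus under that share and UBP12 above it. UBP13 had fewer reads than UBP12, and the part of this in its lower count was not tested. The condition was met in both genes by 6 introns, numbers 1, 12, 13, 20, 26 and 28. Over all genes the median intron had an unspliced share of 0.803% in Col-0 and 3.19% in prl1-2, so most introns of UBP12 and UBP13 stayed below the typical prl1-2 value.

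The same 2 introns had the highest unspliced shares in both paralogues. At intron 20 of UBP12 (2022123 to 2022196, 74 bases) the Col-0 libraries had 2.02%, 0.467% and 0.464%, and the prl1-2 libraries had 7.96%, 8.65% and 7.52%, a mean of 8.05% ± 0.565 (SD, n = 3). At intron 20 of UBP13 (3764436 to 3764512, 77 bases) Col-0 had 1.42%, 0% and 1.36%, and prl1-2 had 9.84%, 4.40% and 5.99%, a mean of 6.74% ± 2.80. Groups did not overlap at this intron in either gene.

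At intron 28 of UBP12 (2020135 to 2020240) the Col-0 libraries had 0.288%, 0% and 0%, and prl1-2 had 5.01%, 5.66% and 2.92%, a mean of 4.53% ± 1.43 (SD, n = 3). At intron 28 of UBP13 (3762375 to 3762467) Col-0 had 0.699%, 2.60% and 2.17%, and prl1-2 had 13.8%, 5.49% and 8.28%, a mean of 9.20% ± 4.24. These 2 introns were singled out after their values were seen. At intron 6, where UBP13 differed in the xct mutants, the prl1-2 mean was 3.05% ± 3.48 in UBP13, against 2.97% ± 0.541 in Col-0.

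**Figure D3:**
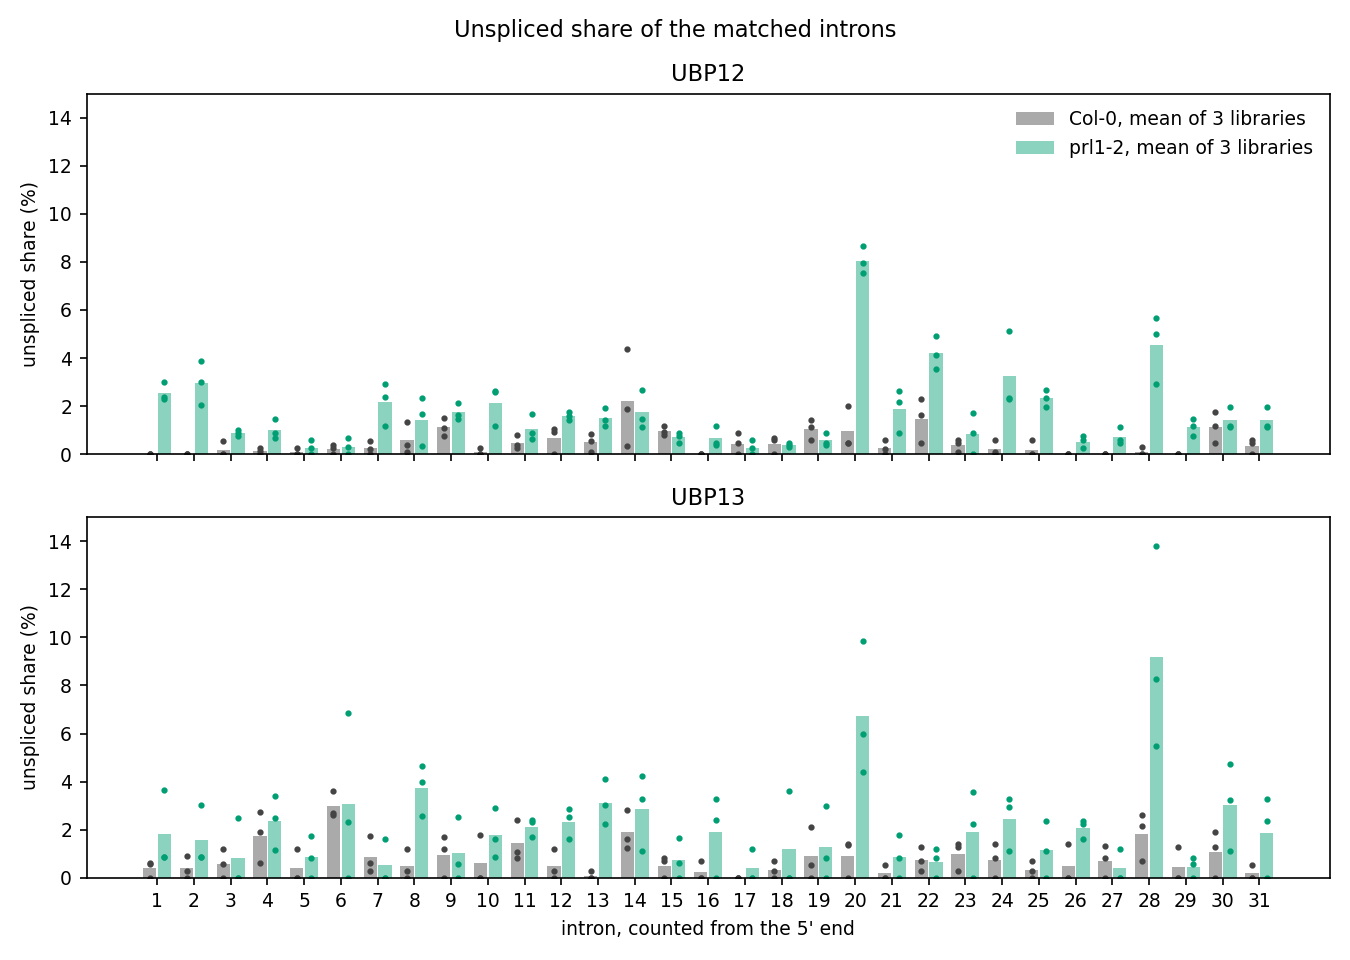
Unspliced share (percent of reads covering both neighbouring exons) at each of the 31 introns of UBP12 (top) and UBP13 (bottom), counted from the 5′ end. Bars are means of 3 libraries and dots are libraries, grey for Col-0 and green for prl1-2; introns 20 and 28 stand highest in prl1-2 in both genes, at 8.05% and 4.53% in UBP12 and 6.74% and 9.20% in UBP13.

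With the reads covering both neighbouring exons as denominator, a setting added after the data were seen, edgeR called 17 of 32 tested UBP12 junctions and 7 of 24 tested UBP13 junctions in prl1-2, all with a negative log2 odds change. One of them, J067 of UBP12, was counted against its own 3-base bin, which reads on J066 skip. Of reads covering both whole exons, prl1-2 libraries had 79.6% on J067 on average, against 77.9% for Col-0. The background was high, with 34.8% of 33657 junctions called, against 53.1% for UBP12 and 29.2% for UBP13. Intron 20 of UBP12 (J047) had a log2 odds change of −3.30 (SE 0.408, adjusted p 3.26e-11, edgeR), and intron 20 of UBP13 (J046) one of −2.55 (SE 0.619, adjusted p 5.97e-04, edgeR). The same setting called, in xct-1 XCT::SpXAP5, J060 of UBP13 and 1 junction of UBP12, where 1.98% were called. The latter was intron 25 (J042), unspliced in 1.84%, 1.19% and 1.17% of reads against 0.575%, 0% and 0% in Col-0, a log2 odds change of −3.05 (SE 0.796, adjusted p 0.0149, edgeR).

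One further intron of UBP13 stood out in xct-2, and it too was picked after its values were seen. Its last intron, 31 (J035, 3761800 to 3761878), was counted as unspliced in 5.18%, 5.71% and 5.17% of reads in xct-2, a mean of 5.36% ± 0.311 (SD, n = 3). In Col-0 it was unspliced in 0%, 0% and 0.543%, and in xct-2 XCT::XCT the mean was 0.0986% ± 0.171. The means were 1.54% ± 0.934 in xct-1 and 1.05% ± 0.152 in xct-1 XCT::SpXAP5. The matching intron of UBP12 was unspliced in 0.202% ± 0.243 of xct-2 reads. No test was made, as xct-2 against Col-0 chose the gene. Whether these xct-2 reads kept the intron or used an unlisted splice site was not tested.

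Gene levels varied more between libraries of 1 genotype than between genotypes. Per kilobase of exon, UBP12 had 87.2, 79.0 and 357 CPM (read counts scaled to a common library size) in Col-0, and UBP13 had 39.4, 35.8 and 158. Col-0 replicate 3 was the highest of the 18 libraries for both genes. In order of level, the UBP12 means in CPM per kilobase were 136 ± 51.7 for prl1-2, 161 ± 57.0 for xct-2 XCT::XCT, 167 ± 110 for xct-1, 175 ± 158 for Col-0, 196 ± 101 for xct-2 and 262 ± 76.0 for xct-1 XCT::SpXAP5 (SD, n = 3). For UBP13 they were 53.2 ± 18.2 for prl1-2, 77.7 ± 69.4 for Col-0, 79.0 ± 53.6 for xct-1, 81.1 ± 32.0 for xct-2 XCT::XCT, 87.8 ± 51.6 for xct-2 and 117 ± 37.5 for xct-1 XCT::SpXAP5. No neighbours in either order differed beyond their spread, and in whole seedlings fewer cells expressing a gene and less RNA per cell cannot be told apart.

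Neither gene was called in expression. In prl1-2 the log2 fold change was −0.36 (SE 0.655, 95% interval −1.64 to 0.93) for UBP12 and −0.55 (SE 0.658, −1.84 to 0.74) for UBP13, both with adjusted p 1.00 (edgeR), where 0.241% of 10810 genes were called. In xct-2 XCT::XCT it was −0.12 (SE 0.653) and 0.06 (SE 0.654), where 0.0185% were called. The changes in xct-1 XCT::SpXAP5 were 0.58 (SE 0.655, −0.70 to 1.87) for UBP12 and 0.60 (SE 0.656, −0.69 to 1.88) for UBP13, both with adjusted p 0.655 (edgeR), where 0% were called, 895 genes having an unadjusted p under 0.05. Of the 6 tests on these genes none reached an unadjusted p of 0.05, and none was called by DESeq2. Without Col-0 replicate 3, the prl1-2 changes were 0.71 for UBP12 and 0.49 for UBP13, so their direction rested on that library. In xct-1 XCT::SpXAP5 the changes without Col-0 replicate 3 were 1.69 for UBP12 and 1.67 for UBP13, both at an unadjusted p under 0.05 but not called. Without Col-0 replicate 2 they were 0.24 and 0.25.

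**Figure D4:**
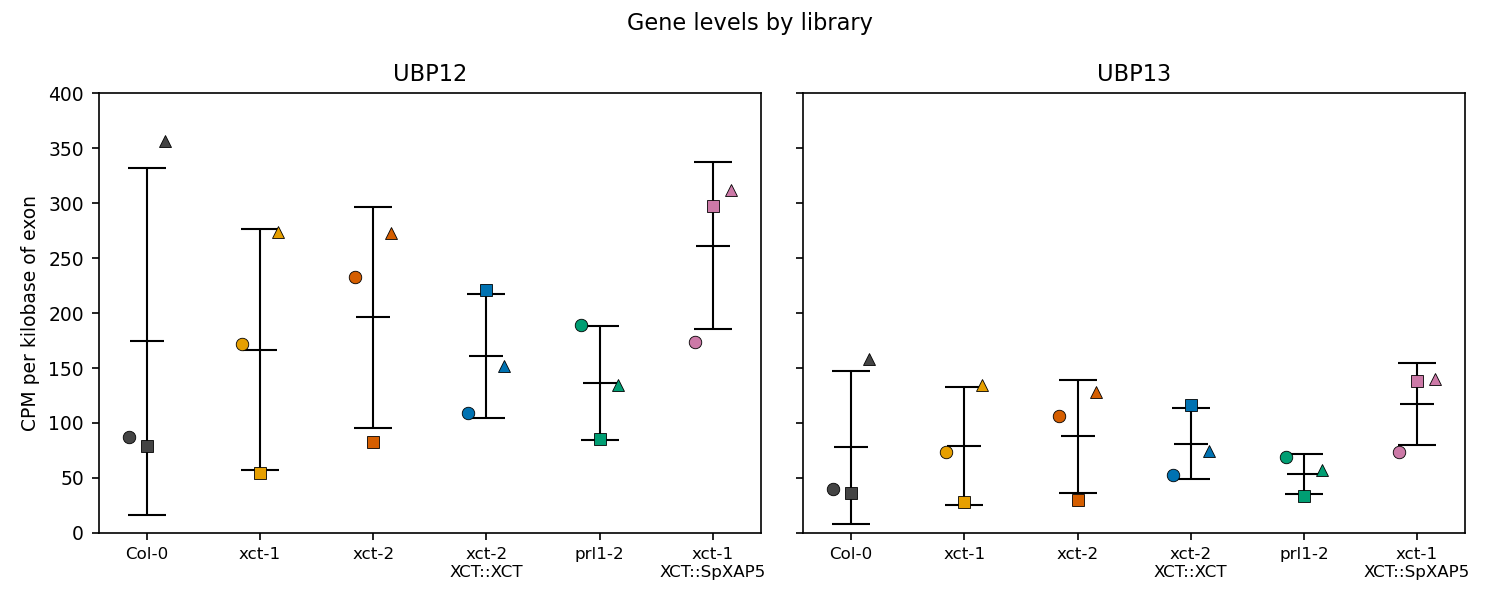
Normalised counts (CPM) per kilobase of exon for UBP12 (left) and UBP13 (right) in each library (circle, square and triangle for replicates 1 to 3), with the mean ± SD of 3 per genotype. In Col-0 replicate 3 stands at 357 and 158, far above replicates 1 and 2. The 6 genotypes overlap in UBP12. In UBP13 they overlap except for prl1-2, up to 69.2, and xct-1 XCT::SpXAP5, from 73.8 upwards.

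The 2 genes rose and fell together across libraries. The ratio of UBP12 to UBP13 reads stayed between 1.95 and 2.83 in all 18 libraries, with a median of 2.25. The genotype means of this ratio ran from 2.04 ± 0.0781 in xct-2 XCT::XCT to 2.60 ± 0.180 in prl1-2 (SD, n = 3).

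The levels moved with a property of the libraries, their ratio of junction reads to gene reads. Col-0 had 8.81, 7.93 and 11.5 in replicates 1 to 3, in which UBP13 had 170, 122 and 376 reads. The last exon of UBP13 was covered by 84.1%, 63.9% and 98.4% of its reads in the same libraries, and that of UBP12 by 90.6%, 78.8% and 99.7%. The lowest coverage of the series was in xct-1 replicate 2, with 63.4% in UBP13, 65.1% in UBP12 and 7.05 junction reads per gene read.

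Reads that missed the 3′ end of the gene stopped at the matching place in both paralogues. In UBP13 pooled coverage dropped by 276 of 4473 reads between the exon after intron 12 (3766376 to 3766522, 147 bases) and the next exon. In UBP12 it dropped by 269 of 10031 reads after the exon that follows intron 12 (2023991 to 2024140, 150 bases), and by a further 131 after the next exon. The part of this loss of 3′ coverage in the expression values was not tested. Intron 6 lies upstream of the place, and its shares use only reads at its own 5′ site.

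**Figure D5:**
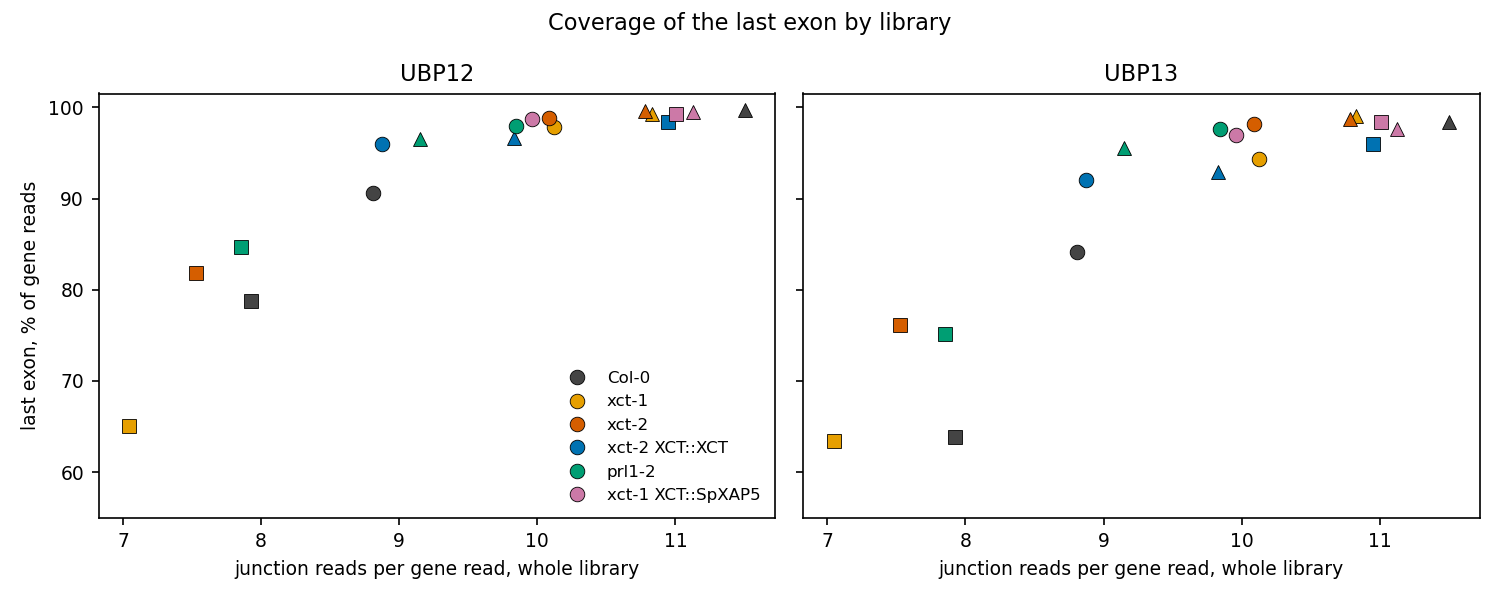
The percent of a gene's reads that cover its last exon is plotted against the junction reads per gene read of the whole library, for UBP12 (left) and UBP13 (right), 18 libraries coloured by genotype (circle, square and triangle for replicates 1 to 3). Libraries under 9 junction reads per gene read, among them Col-0 replicates 1 and 2, lie lowest, down to 65.1% in UBP12 and 63.4% in UBP13.

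The part of this property in junction usage measured against all reads of a gene was not tested. The median log2 odds change in xct-1 XCT::SpXAP5 over the tested junctions was 1.79 in UBP12 and 2.07 in UBP13, against 0.03 over all 50590 junctions. Besides the 2 called junctions, 10 of UBP13 had an unadjusted p under 0.05, all of them at introns 19 to 31, downstream of the place where reads stopped. Over both genes the median was 2.00, and 1.04 without Col-0 replicate 2, with 2 junctions called either way. Without Col-0 replicate 3 it was 3.03, also with 2 called. The number of junctions with an unadjusted p under 0.05 in UBP13 was 12 with all libraries, 2 without Col-0 replicate 1 or 2, and 21 without Col-0 replicate 3. Over both genes it was 16 with all libraries and 47 without Col-0 replicate 3.

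No exon bin of either gene was called. Of 68 bins tested with edgeR, 0 were called in each of the 3 comparisons. Of all 31056 bins, 0.0934% were called in prl1-2, 0% in the XCT::XCT line and 0% in the XCT::SpXAP5 line. At an unadjusted p under 0.05 there were 4 member bins in the XCT::SpXAP5 line and 0 in the other comparisons, and the 4 were UBP12 bins next to the place of the read loss, E020 to E023.

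Across the 3702 unannotated junctions tested, the 5 genes whose junction followed UBP13 N067 most closely over the 18 libraries also used 3′ sites downstream of annotated ones. They are given as a description, since libraries share depth and genotype. The share of downstream 3′ sites among all 3702 was not counted here, so the 5 do not show an excess of such sites. The closest was AT5G45510 (Pearson r 0.9924), with a site 9 bases downstream whose use went from 4.04% ± 0.635 of reads (Col-0) through 13.1% ± 0.560 (xct-1) to 18.4% ± 0.139 (xct-2). AT4G38350 followed (r 0.9917, 68 bases), then TOP3A, a DNA topoisomerase (r 0.9899, 45 bases). The last 2 were AT3G11964 (r 0.989, 24 bases) and TIC, the clock regulator TIME FOR COFFEE (r 0.9887, 18 bases). In each of the 5 genes the mean was higher in xct-2 than in xct-1, and xct-1 XCT::SpXAP5 lay within 6 percentage points of xct-1, an order that the choice by likeness to N067 largely fixes.

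Among the other ubiquitin-specific proteases, none of the 22 tested for expression was called in any of the 3 comparisons (edgeR), with 1 at an unadjusted p under 0.05 in prl1-2, 1 in the XCT::SpXAP5 line and 0 in the XCT::XCT line. Of 146 tested junctions 6 were called in xct-1 XCT::SpXAP5 (4.11% against 1.14% of all junctions), 3 used more and 3 less, in 4 genes. The 3 used more were unannotated junctions, N034 of UBP15, N026 of UBP9 and N023 of UBP16. They reached the read minimum only through the genotypes in which they were high. Their calls are therefore no test, though the 4.11% includes them, and they are given as a description. UBP15, which promotes leaf growth, showed the same arrangement as UBP13 on a smaller scale. Its unannotated site N034, 18 bases downstream, took 0.136% ± 0.235 of reads in Col-0. It took 4.24% ± 1.52 in xct-1, 11.1% ± 2.16 in xct-2 and 4.45% ± 1.24 in xct-1 XCT::SpXAP5. In xct-1 XCT::SpXAP5 the matching annotated junction J022 of UBP15 was used less, by −1.89 on the log2 odds scale (adjusted p 0.0211, edgeR). J022 shares its 5′ site with N034, so this call is no evidence separate from N034.

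In UBP9 a site 22 bases downstream (N026) took 1.04% ± 0.920 of reads in Col-0. It took 20.5% ± 5.99 in xct-1, 20.5% ± 5.19 in xct-2 and 14.8% ± 3.20 in xct-1 XCT::SpXAP5. The xct-1 and xct-2 means were thus alike, unlike in UBP13. In xct-1 XCT::SpXAP5 the annotated junction J019 of UBP9 was used less (log2 odds change −2.79, adjusted p 0.00322, edgeR). J019 shares its 5′ site with N026, so this call is no evidence separate from N026. UBP9 has a close copy, UBP10, so its counts are uncertain. In UBP16, N023, also 22 bases downstream, had 0 of 508 gene reads in Col-0 and 42 of 607 in xct-1 XCT::SpXAP5, given as a description since Col-0 had none. UBP3 had the remaining call, J011, at 97.4% ± 1.37 in Col-0 and 79.5% ± 3.07 in xct-1 XCT::SpXAP5 (adjusted p 0.0213, edgeR).

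N067 of UBP13, with a mean of 61.7% ± 2.64 of gene reads in xct-2, was thus used more there than the unannotated 3′ sites of UBP9, UBP15 and UBP16, of which that of UBP16 had 7.11% ± 1.72. The other unannotated junctions used by at least 10% of reads in a genotype were in UBP8 (N033, N034 and N035), UBP17 (N024 and N025) and UBP26 (N030, 3 bases downstream), and these were already in use in Col-0, at means of 10.2% to 99.0%. UBP26 is a histone H2B deubiquitinase. In xct-2 XCT::XCT against Col-0, 0 of the 146 junctions were called by edgeR, with 4 at an unadjusted p under 0.05.

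In prl1-2, 23 of the 146 junctions, in 13 family genes, were called, all used less, a share of 15.8% against 9.75% of all junctions. They lay in UBP2, UBP3, UBP5, UBP8, UBP9, UBP10, UBP15, UBP16, UBP18, UBP19, UBP23, UBP24 and UBP26. The most in 1 gene were the 6 of UBP15, for example J019, used by 99.5% of reads in Col-0 and 92.5% in prl1-2 (adjusted p 3.49e-04, edgeR). The lowest prl1-2 usage among them was in UBP3 J011, at 66.4% against 97.4% (adjusted p 9.38e-04, edgeR). UBP12 and UBP13 were not among these genes when junctions were measured against all reads of a gene. With the reads covering both neighbouring exons as denominator, 17 of 32 UBP12 and 7 of 24 UBP13 junctions were called in prl1-2. The family was not counted that way, so the pair is not shown to differ from it.

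Of 10 genes whose products bind or are stabilised by UBP12 and UBP13 (GI, ZTL, LHP1, MYC2, RGFR1, ORE1, DA1, CRY2, COP1 and BRI1), 9 were tested for expression and edgeR called none in any of the 3 comparisons, with 1 at an unadjusted p under 0.05 in each. Of their 35 tested junctions, 6 in 3 genes were called in prl1-2 (17.1%, where 9.75% of all junctions were called), all used less. None was called in xct-1 XCT::SpXAP5 or in xct-2 XCT::XCT, where 1.14% and 0.00198% of all were called. COP1, a ubiquitin ligase of light signalling, had 3 of them, for example J014, at 98.6% in Col-0 and 84.1% in prl1-2 (adjusted p 0.00600, edgeR). The blue-light receptor gene CRY2 had 2, J010 (adjusted p 0.0178) and J013 (adjusted p 0.0424), and the root receptor gene RGFR1 had 1, J003 (adjusted p 0.00409, all edgeR). GI and ZTL, the clock partners of the pair, had no called junction.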

How the data were processed

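The authors deposited 1 table of raw counts per library with whole numbers for genes, exon bins, annotated junctions and unannotated junctions, and 5 tables of comparisons which, per the file headers, hold a p-value, an adjusted p-value and a log2 ratio per feature; of these only p-values and signs were used. Alignment used minimap2 2.17 and the TAIR10 build, per the submitters' processing notes; the sources used here give no other settings. Coordinates are the authors', written from 1. Symbols came from a RefSeq gene table (TAIR10.1), used for names only, in which all 37 listed identifiers were found.

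For usage, edgeR 4.0.16 (R 4.3.3) compared the reads on a junction or bin with the other reads of its gene over all 18 libraries, in a model with library terms and genotype-specific usage terms. Features of single genes with at least 20 reads on each side were tested. Gene counts were TMM-scaled and filtered by edgeR's default. Each comparison had its own Benjamini-Hochberg adjustment, and called means an adjusted p under 0.05. The tested comparisons, prl1-2, xct-2 XCT::XCT and xct-1 XCT::SpXAP5 against Col-0, share the Col-0 libraries. Counts of 0 allow 3 reads at the 95% level. Both tests were checked on simulated data with a set spread and large changes. This does not show how they perform at the spread between these libraries. DESeq2 1.42.0 was an alternative. Members and lists were chosen with earlier results of these data known. Named features were every called junction or bin of the pair, unannotated junctions used by at least 1% of reads, the introns around intron 6, called genes of the lists and family junctions outside the annotation used by at least 10%.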

Additional observations from a re-analysis of the deposited data

How the results depend on the processing

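Calls for UBP12 and UBP13 were recomputed with DESeq2, other count minimums and scalings, the 6 libraries of a comparison, other denominators and without each library in turn. The number called stayed within 1.5 times of the reported one in every case but the denominator of reads covering both neighbouring exons, added after seeing the data, with 24 junctions called in prl1-2 against 0. The share of the unannotated UBP13 intron 6 site in xct-2 was 61.7% with all gene reads as denominator, against 64.6% of the reads at its 5′ site. Without 1 library the latter share ran from 63.9% to 65.7% in xct-2, 37.3% to 39.9% in xct-1 and 37.5% to 42.0% in xct-1 XCT::SpXAP5. The log2 odds change of J060 in xct-1 XCT::SpXAP5 ran from −3.88 to −3.41 without 1 library; with the gene count as an offset it was −0.73 on the log2 ratio scale.

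Expression changes turned direction in 8 cases, none of them called. Without 1 library, the log2 change in prl1-2 ran from −0.72 to 0.71 for UBP12 and from −0.91 to 0.49 for UBP13, the highest without Col-0 replicate 3. In xct-2 XCT::XCT it ran from −0.47 to 0.96 for UBP12, above 0 without Col-0 replicate 3 and, at 0.10, without replicate 1 of the line. For UBP13 in that line it ran from −0.30 to 1.12, below 0 without Col-0 replicates 1 (−0.25) or 2 (−0.28) and without replicate 2 of the line. The cause was not tested. Whether replicate numbers pair the libraries of the 3 tested comparisons was not settled. In each of them at least 1 of the 3 same-numbered pairs had a correlation of deviations below 0. The highest was 0.654, for replicate 2 of Col-0 and prl1-2. Of all 45 same-numbered pairs 23 were over 0.1, from −0.61 to 0.89, including all 3 for xct-1 with xct-2, xct-1 with prl1-2 and xct-2 with prl1-2, which were not tested against each other. With a replicate block the UBP12 change in xct-2 XCT::XCT was 0.23, and the block called the same numbers of junctions in the pair, 0 in prl1-2, 0 in xct-2 XCT::XCT and 2 in xct-1 XCT::SpXAP5, where it raised those at an unadjusted p under 0.05 from 16 to 40.

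With 423 UBP13 reads in all of prl1-2, unspliced shares of single introns rest on few reads, for example 26 of 380 at intron 20.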
